A study of Mus musculus with 5 samples.

Results

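The 10 genes described here encode CTCF, its germ-line relative, and proteins that form, load, hold or release the cohesin ring: Ctcf, Ctcfl, Smc3, Rad21, Stag1, Nipbl, Mau2, Wapl, Pds5a and Pds5b. They were taken by name from the RefSeq gene table of mm10 (GRCm38.p6), in which all 10 of the 10 names were found among 21779 protein-coding genes on chromosomes 1 to 19, X and Y. For each gene, CTCF peaks were counted in the gene body and in the 100 kb on either side of it, by peak midpoint. The peaks came from chromatin immunoprecipitation and sequencing (ChIP-seq) in NIH3T3, a mouse embryonic fibroblast line, here made to express H2B-mCherry, the rtTA3G transactivator and a doxycycline-inducible CDX2 gene in every group. The CTCF antibody was used on 2 libraries of cells induced with doxycycline for 6 h, and on 2 libraries of cells not induced, beside 1 input library of cells not induced. CDX2, a homeobox transcription factor of intestine and trophectoderm, was thus switched on from the TRE3G promoter in the first group. The deposited values are 1 list of 22756 peak intervals merged over both conditions, with no height, no score and no sample name. The groups could therefore not be compared, there was no replicate spread, the reads behind each peak are unknown, and the counts below describe where CTCF was called over both conditions together. No expression values were used, so the cell type could not be checked against its markers.

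CTCF is a zinc finger protein that binds a long, oriented DNA motif. Cohesin is a ring of SMC1A, SMC3 and RAD21 with a STAG subunit. It is loaded on chromatin by NIPBL with MAU2, extrudes DNA loops until it meets CTCF, and is released by WAPL together with PDS5A or PDS5B. Loop anchors in mammalian cells are for this reason often CTCF sites, and most genes of this machinery are active in most dividing cells.

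Promoter windows of some of the genes are shown first, with the reason for each. They are RefSeq promoter sequences of GRCm38.p6, from 250 bases before to 50 after an annotated start, written 5′ to 3′ along the gene. Capitals mark matches to AGGNGGC or AGATGGC, short forms of the 3′ part of the CTCF core motif, searched on both strands. A match on the opposite strand reads as its reverse complement, and the matches in these windows do not overlap each other. Pds5b (chr5:150673577-150673876, plus strand) is shown because a CTCF peak covers most of the window, Stag1 (chr9:100643198-100643497, plus strand) because a peak begins inside it, Smc3 (chr19:53600146-53600445, plus strand) because a peak ends just before it, and Ctcf (chr8:105636288-105636587, plus strand) as the gene of the factor itself, whose window has no peak.
Pds5b: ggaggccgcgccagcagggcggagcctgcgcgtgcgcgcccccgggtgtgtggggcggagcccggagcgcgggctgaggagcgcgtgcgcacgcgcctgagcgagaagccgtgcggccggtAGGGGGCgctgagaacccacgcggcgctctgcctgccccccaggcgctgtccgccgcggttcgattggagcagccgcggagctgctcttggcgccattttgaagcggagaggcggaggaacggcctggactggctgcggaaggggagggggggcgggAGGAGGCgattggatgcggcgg
Stag1: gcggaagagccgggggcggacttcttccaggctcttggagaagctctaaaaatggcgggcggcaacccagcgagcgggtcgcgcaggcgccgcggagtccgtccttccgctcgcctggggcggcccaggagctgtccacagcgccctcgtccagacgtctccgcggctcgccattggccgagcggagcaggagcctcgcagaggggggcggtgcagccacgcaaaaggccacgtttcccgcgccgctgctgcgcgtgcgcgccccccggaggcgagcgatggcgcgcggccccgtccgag
Smc3: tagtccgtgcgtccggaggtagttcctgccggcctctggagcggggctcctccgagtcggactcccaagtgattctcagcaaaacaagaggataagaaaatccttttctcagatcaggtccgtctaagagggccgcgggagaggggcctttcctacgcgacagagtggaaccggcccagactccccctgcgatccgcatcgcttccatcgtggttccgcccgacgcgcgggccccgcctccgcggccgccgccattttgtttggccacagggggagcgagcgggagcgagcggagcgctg
Ctcf: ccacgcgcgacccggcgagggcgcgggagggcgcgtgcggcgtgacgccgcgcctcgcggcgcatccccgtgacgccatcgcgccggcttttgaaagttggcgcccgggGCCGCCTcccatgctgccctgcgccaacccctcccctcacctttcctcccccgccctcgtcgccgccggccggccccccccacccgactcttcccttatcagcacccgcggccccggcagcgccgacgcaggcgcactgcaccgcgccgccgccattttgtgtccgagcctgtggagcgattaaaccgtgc

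The Pds5b peak, chr5:150673511-150673849, is 339 bp wide and covered bases 1 to 273 of the window, 91% of it. The match at bases 122 to 128 lay inside the peak, 21 bases from its midpoint, while the match at bases 279 to 285 lay outside. In Stag1 the peak chr9:100643475-100643745 covered 23 bases, from base 278 to base 300, and the window held no match. The Smc3 peak, chr19:53599799-53600064, ended 81 bases before the window, which held no match either. The Ctcf window held 1 match at bases 110 to 116, on the opposite strand, and its nearest peak midpoint lay 14.0 kb upstream of the start. Among all 32851 promoter windows, 29.4% held AGGNGGC and 6.40% held AGATGGC. Of the 1179 windows that a peak overlapped, 60.1% held either, against 33.0% of the 31672 without a peak. Windows with a peak were richer in G and C, with a median of 60.7% against 52.3%, and the part of base composition in that difference was not tested.

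Promoter entries were found for 7 of the 10 genes: Ctcf, Smc3, Stag1, Wapl, Pds5a, Pds5b and Mau2. A peak overlapped the promoter window of 2 of the 7, Stag1 and Pds5b, where 4.83% of the 17492 protein-coding genes with an entry had one. Within 1 kb of an annotated start, by midpoint, 3 of the 7 had a peak, against a background of 8.22%. These were Pds5b, with the midpoint 147 bp upstream, Stag1, 162 bp downstream, and Smc3, 465 bp upstream. Pds5a came next at 1.27 kb downstream. Ctcf followed at 14.0 kb, Mau2 at 27.7 kb from the nearer of its 2 entries, and Wapl at 52.8 kb. Pds5a was thus outside the 1 kb limit, and Ctcf, Mau2 and Wapl had no peak within 10 kb of a start. Ctcfl, Rad21 and Nipbl had no entry, so which end is their start was not known here. Their nearer gene ends lay 3.82, 50.7 and 14.1 kb from a peak, and their other ends 12.0, 81.6 and 155.7 kb. The median over the 7 was 1.27 kb, and over protein-coding genes with an entry it was 23.4 kb. The 8 windows of these 7 genes had a median G and C content of 70.3%. The median was 56.3% over windows of protein-coding genes and 52.7% over all windows, and no matching on base composition was done.

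**Figure D1:**
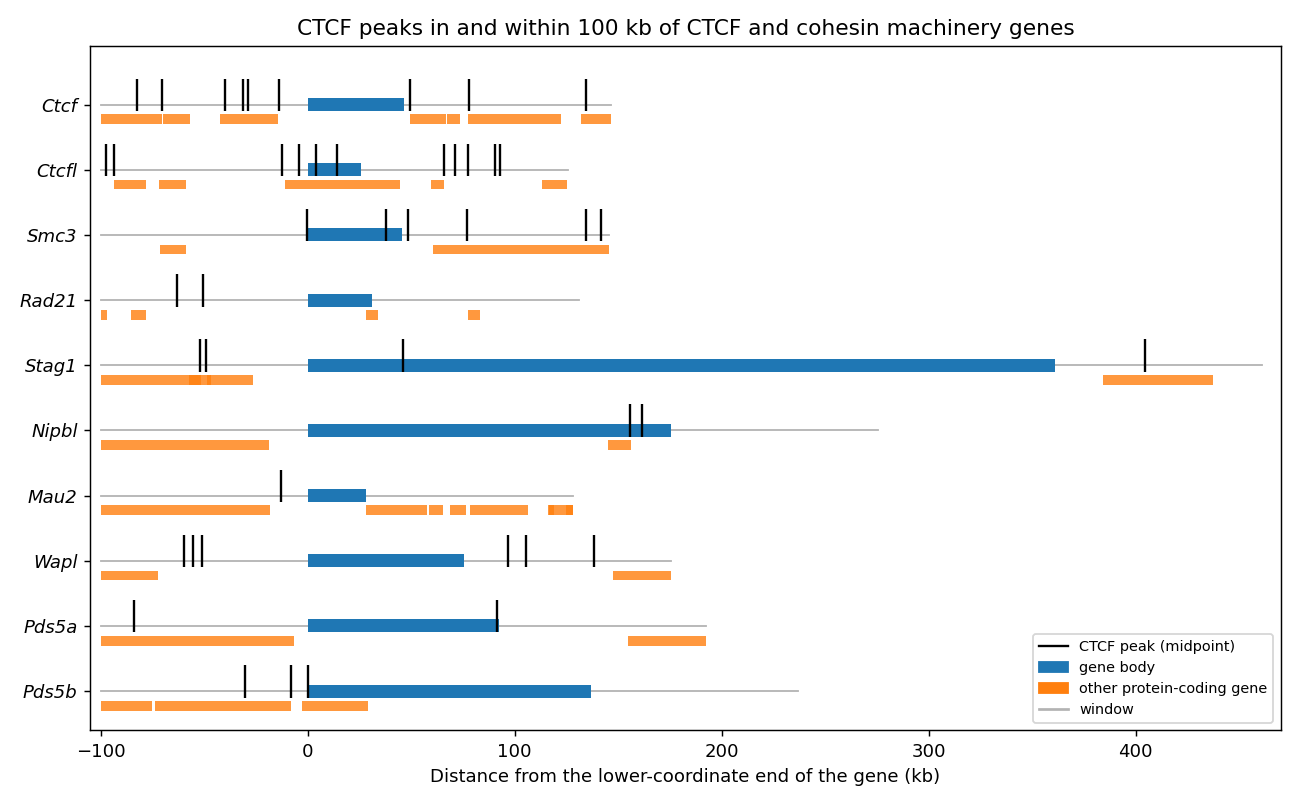
CTCF peaks around each gene, drawn by distance in kb from the lower-coordinate end of the gene (x axis), 1 gene per row. Black ticks are peak midpoints, blue bars the gene bodies, orange bars other protein-coding genes and grey lines the body plus 100 kb each side. Ctcf and Ctcfl have 9 and 11 ticks, while Mau2 has 1 and those of Nipbl both lie inside the body.

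The 10 windows held 46 peaks, and no peak fell in more than 1 window. Of these, 7 lay in a gene body and 39 in the flanks, 23 on the lower-coordinate side and 16 on the higher. Each of the 10 genes had at least 1 peak in its window, as did 81.8% of all protein-coding genes. A peak in the body was present in 5 of the 10, Ctcfl, Smc3, Stag1, Nipbl and Pds5a. This is above the 29.5% of all protein-coding genes, but close to the 48.3% of the 7954 protein-coding genes whose lengths lie in the range of the 10 genes, from 25.9 to 360.8 kb. Peaks in both flanks were found for 5 of the 10 (background 52.8%), in 1 flank for 4, and in neither for Nipbl (background 20.6%). Pooled over their length, the bodies held 0.687 peaks per 100 kb and the flanks 1.95 per 100 kb. The same pooled densities over all protein-coding genes were 1.10 in bodies and 1.91 in flanks. The flanks of the machinery genes were thus near the level of all genes. The body value was lower, but rests on 7 peaks in 1.02 Mb, of which Stag1 makes up 360.8 kb with 1 peak. No body density matched on gene length was computed.

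**Figure D2:**
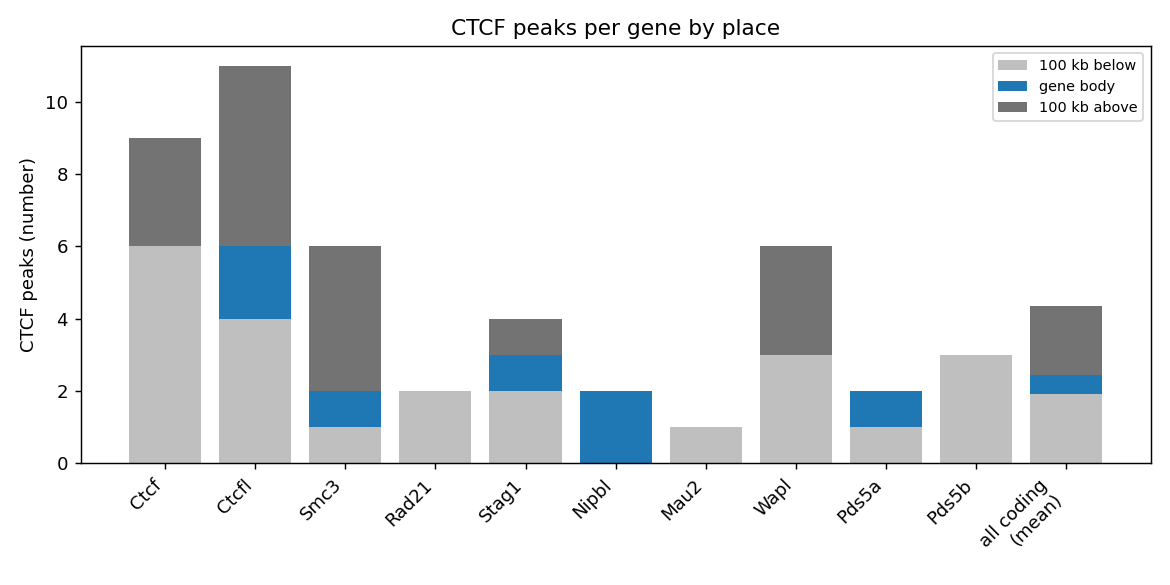
Number of CTCF peaks per gene (y axis), stacked by place: 100 kb on the lower-coordinate side in light grey, gene body in blue, 100 kb on the higher side in dark grey. The 10 genes average 4.60 peaks, against 4.35 for all 21779 protein-coding genes, whose mean is the bar on the right.

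Because the window grows with the gene, peaks were also expressed per 100 kb of window. The order was Ctcfl at 4.87, Ctcf at 3.65, Smc3 at 2.44, Wapl at 2.18, Pds5b at 0.890, Rad21 at 0.866, Stag1 at 0.713, Pds5a at 0.684, Nipbl at 0.533 and Mau2 at 0.438 peaks per 100 kb. The median of the 10 was 0.878 and that of all protein-coding genes 1.42 peaks per 100 kb, with quartiles of 0.460 and 2.76. The first 4 genes lay above that median and the other 6 below it. The lower 6 rest on 1 to 4 peaks each, so their order among themselves turns on single peaks. Ctcfl exceeded 92.2% of protein-coding genes and Ctcf 84.4%, while Mau2 exceeded 23.3%. Set against genes of the same chromosome, Wapl stood higher, above 79.5% of chromosome 14 genes. Smc3 stood lower, above 45.8% of the genes of peak-rich chromosome 19. Rad21 and Nipbl exceeded 35.3% and 30.6% of all protein-coding genes, but 13.6% and 9.43% of those of chromosome 15. Stag1, Pds5a, Pds5b and Mau2 also stood lower on this measure, and Ctcf and Ctcfl slightly higher.

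**Figure D3:**
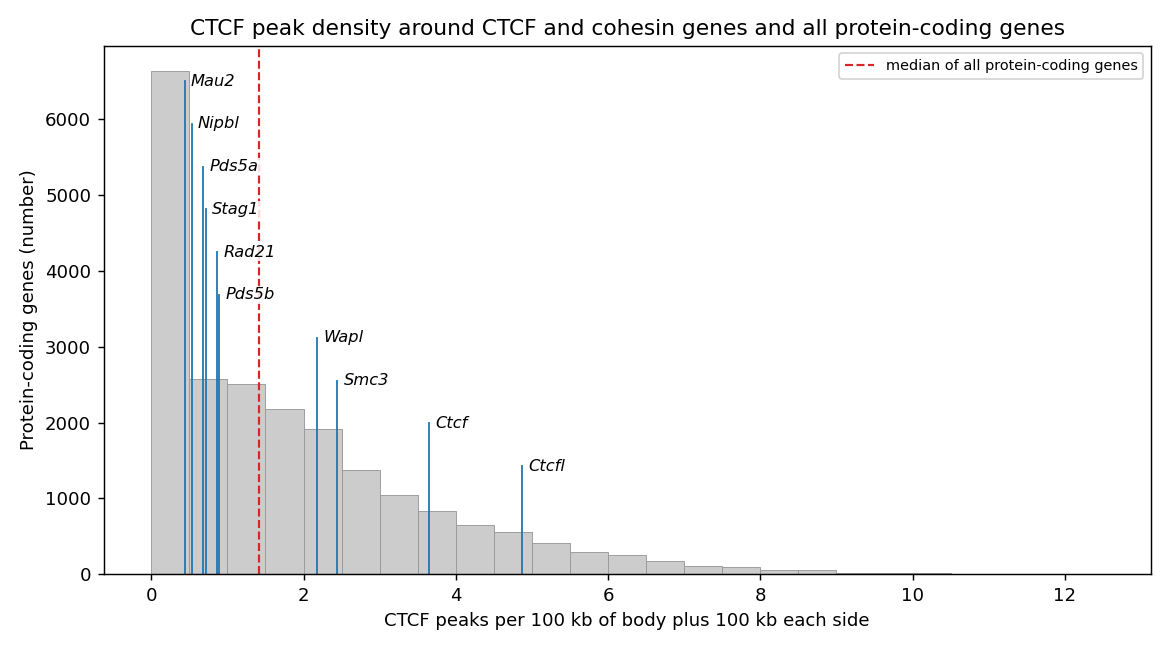
Histogram of CTCF peak density (x axis, peaks per 100 kb of the body with its 100 kb flanks) for all protein-coding genes (y axis, number of genes, bins of 0.5). Blue lines mark the 10 genes, and the red dashed line is the median of 1.42. The lines fall in a group of 6 below it and a spread of 4 above it.

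Ctcf, the gene of the factor itself, lies at chr8:105636474-105682922 and had 0 peaks in its body, 6 below and 3 above. The stretch free of peaks that contains the gene was 63.3 kb long. On its higher side the first peak was 2.99 kb past the gene end, at chr8:105685775-105686044, and lay in the 3.09 kb gap to Carmil2, a gene for a regulator of actin capping. It was within 1 kb of an end of Carmil2. On the lower side the first peak was 13.9 kb from the gene, in the 14.3 kb gap to Ripor1 and within 1 kb of its end. Ctcf was therefore separated by 1 peak from each protein-coding neighbour. Ripor1 itself held 3 of the peaks, including the widest of the 46 at 624 bp (chr8:105596464-105597087). Farther out, peaks at 70.2 kb below and 31.5 kb above lay within 1 kb of an end of Atp6v0d1 and Agrp, and of Gfod2.

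Ctcfl encodes CTCFL (BORIS), a CTCF relative with a like zinc finger region that is normally made in male germ cells. It lies at chr2:173093609-173119525, where the table also places the overlapping gene model Gm40011. It had the highest count, 11 peaks, with 2 in the body, 4 below and 5 above. The body peaks, chr2:173097281-173097585 and chr2:173107465-173107679, were 305 and 215 bp wide and lay 3.82 and 14.0 kb from the lower-coordinate end. No peak lay in the 33.5 kb gap to Pck1, the gene of a gluconeogenic enzyme. All 5 peaks of the higher side stood beyond Pck1, from 40.0 to 67.0 kb past Ctcfl, and the first was within 1 kb of an end of Pck1. On the lower side, 2 peaks at 3.95 and 12.5 kb came before Rbm38, an RNA-binding protein gene 58.9 kb away. A peak 93.8 kb below lay at Rae1, an mRNA export gene. Zbp1, a nucleic acid sensor gene 87.1 kb above, had a peak by its far end, just past the window. Next neighbours under 10 kb apart numbered 6, the most of any of the 10 windows, and the closest pair was 2.26 kb apart.

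Peaks in the windows of Ctcf and Ctcfl also reached promoters of neighbouring genes, of which Ripor1 (chr8:105604979-105605278, plus strand) and Rae1 (chr2:172999867-173000166, plus strand) are shown for the motif matches under their peaks.
Ripor1: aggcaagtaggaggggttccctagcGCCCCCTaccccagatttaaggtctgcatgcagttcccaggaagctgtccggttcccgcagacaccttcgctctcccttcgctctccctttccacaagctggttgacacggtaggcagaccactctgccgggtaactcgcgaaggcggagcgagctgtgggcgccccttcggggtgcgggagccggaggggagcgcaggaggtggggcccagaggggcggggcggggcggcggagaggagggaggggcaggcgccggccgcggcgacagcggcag
Rae1: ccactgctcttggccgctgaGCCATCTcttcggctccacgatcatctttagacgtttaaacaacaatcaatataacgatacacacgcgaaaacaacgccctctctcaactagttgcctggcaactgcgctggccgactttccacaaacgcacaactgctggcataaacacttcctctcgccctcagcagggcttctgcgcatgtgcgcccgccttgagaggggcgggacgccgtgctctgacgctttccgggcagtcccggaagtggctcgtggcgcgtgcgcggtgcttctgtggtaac

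The peak chr8:105604883-105605129 covered bases 1 to 151 of the Ripor1 window, and the match at bases 26 to 32 lay 1 base from the peak midpoint. At Rae1 the peak chr2:172999678-172999960 covered bases 1 to 94, and the match at bases 21 to 27 lay 71 bases from the midpoint. In both windows the match reads on the opposite strand. The promoter of Atp6v0d1, a proton pump subunit gene, was covered over 173 bases and held 1 match under its peak. That of N4bp2l2, the neighbour of Pds5b, was covered over 123 bases and had 2 matches, neither of them under the peak.

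Among the ring subunits, Smc3 had 6 peaks in its window, Stag1 4 and Rad21 2. The density of Smc3, 2.44 peaks per 100 kb, was above the median over all protein-coding genes but below the median of 2.71 over those of chromosome 19. Smc3, which encodes an ATPase arm of the ring, lies at chr19:53600396-53645831 and had 6 peaks, 1 below, 1 in the body and 4 above. The first stood 465 bp before the gene, as described above. The body peak, chr19:53638116-53638352, lay 37.8 kb inside and the next, 413 bp wide, 3.13 kb past the gene end. This one lay in the 15.2 kb gap to Rbm20, a splicing regulator gene of the heart. The remaining 3 peaks fell inside Rbm20. On the lower side the peak 465 bp before the gene was the sole peak in the 58.6 kb to Dusp5, a MAP kinase phosphatase gene.

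Rad21 encodes the kleisin that closes the ring and is cut at anaphase. It lies at chr15:51962604-51993538 and had 2 peaks, both on the lower side, at 50.7 and 63.3 kb. Both lay over the long non-coding RNA Gm34678, in the 78.0 kb gap to Utp23, a ribosome biogenesis gene. No peak was listed in the body, where the gene model Gm52217 overlaps, or in the 46.6 kb to Aard, and the first peak above was 160.1 kb away. The stretch free of peaks around Rad21 thus measured 241.7 kb, on a chromosome with 1.34 peaks per 100 kb.

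Stag1 encodes an alternative STAG subunit of cohesin and is the longest of the 10 genes at 360.8 kb (chr9:100597709-100958544). It had 4 peaks. The body peak is the promoter peak shown above, 45.9 kb from the lower-coordinate end of the gene table's span. That span begins 45.7 kb before the start in the promoter table, so by the ends of the gene table Stag1 had no peak within 1 kb. The next peak stood 43.7 kb past the gene, in the propionyl-CoA carboxylase gene Pccb, and the 358.7 kb between them held no peak. Below, peaks at 49.2 and 51.8 kb lay at an end of Slc35g2 and of the adaptor gene Nck1. They were 2.67 kb apart. The gaps to the nearest protein-coding neighbours, Slc35g2 at 26.6 kb and Pccb at 23.5 kb, held no peak.

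The loader genes Nipbl and Mau2 had the lowest densities with flanks of 100 kb. With flanks of 50 kb Rad21 had 0 peaks, Pds5a and Mau2 1 each and Nipbl 2, and with 250 kb Pds5a had 4, Rad21 5, Mau2 6 and Nipbl 10, so neither loader gene was lowest there. Nipbl, whose human counterpart is the main gene of Cornelia de Lange syndrome, lies at chr15:8289824-8465315. Its 2 peaks were both in the body, chr15:8445348-8445613 and chr15:8451131-8451310, 5.74 kb apart and 19.8 and 14.1 kb from the higher-coordinate end. The first lay within 1 kb of an end of the overlapping gene model LOC102634078. Nipbl alone among the 10 genes had no peak in either flank, since the next peaks stood 178.8 kb below and 112.4 kb above. No peak lay in the 18.7 kb to Cplane1, a ciliogenesis gene, while the 168.8 kb to the glutamate transporter gene Slc1a3 held 5, all past the 100 kb limit. Mau2 lies at chr8:70014527-70042734 and had 1 peak, chr8:70001749-70001929, 181 bp wide and 12.7 kb below the gene. It stood in the 18.1 kb gap to Gatad2a, which encodes a subunit of the NuRD remodeller. On the other side Mau2 is 34 bp from Sugp1, a splicing factor gene, with no peak between them and none for 124.1 kb. The gene model Gm45929, 96.8 kb away, had a peak within 1 kb of its outer end, past the window limit.

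Of the release genes, Wapl was flanked at a distance and the Pds5 genes were marked near their starts. Wapl, the release factor, lies at chr14:34672379-34747983 and had 3 peaks on each side and 0 in the body. The 3 below lay at 51.2, 55.4 and 59.9 kb, all in the 72.2 kb gap to the melanopsin gene Opn4. The 3 above lay at 21.1, 30.0 and 63.0 kb, in the 72.0 kb gap to the glutamate receptor gene Grid1. Between the inner peaks was a stretch of 148.0 kb with no peak and no protein-coding gene other than Wapl. The 2.18 peaks per 100 kb of the Wapl window stood above the median of 0.946 over windows of chromosome 14 protein-coding genes. Chromosome 14 as a whole, gene-poor stretches included, held 0.520 peaks per 100 kb.

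Pds5a and Pds5b encode alternative HEAT-repeat partners of WAPL that also take part in holding cohesin. Both are on chromosome 5. Pds5a (chr5:65605719-65698236, minus strand) had a body peak at chr5:65696821-65697112, 1.27 kb inside its start, and 1 peak 83.7 kb below in Smim14. No peak lay in the 6.73 kb to Ube2k, a ubiquitin-conjugating enzyme gene, or in the 62.3 kb to N4bp2, and the next peak beyond the start was 240.0 kb away. Pds5b (chr5:150673713-150810669) had 3 peaks, all on the side of its start, at 33 bp, 7.84 kb and 30.1 kb from the gene. The nearest of these lay over the gene model Gm40353, which overlaps Pds5b. With intervals in place of midpoints, this peak counted in the body of Pds5b too. The second lay at the promoter of N4bp2l2, 7.96 kb away, so that 2 peaks stood between these neighbours. The body of 137.0 kb was free of peaks by midpoint, as was the 141.9 kb to Kl, the klotho gene. The next peak past Pds5b stood 245.1 kb beyond its higher-coordinate end. In Pds5a 174.9 kb separated the body peak from the next one on the lower side.

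**Figure D4:**
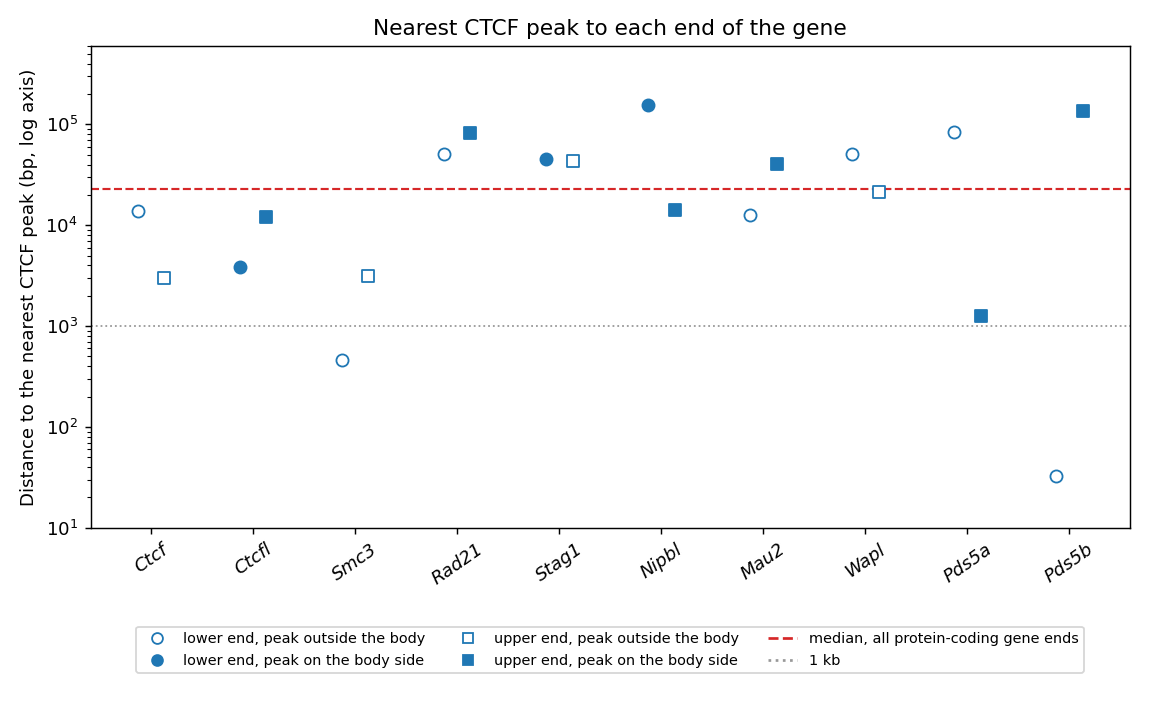
Distance from each end of the gene to the nearest CTCF peak midpoint, in bp on a log axis (y axis), for the 10 genes (x axis). Circles are lower-coordinate and squares higher-coordinate ends, filled where the peak lies toward the body. The red dashed line is the median over both ends of all protein-coding genes, 22.8 kb, and the points below the dotted 1 kb line are Smc3 and Pds5b.

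Measured from the ends of the gene table, whatever the strand, a peak stood within 1 kb at 2 of the 10 genes, Smc3 and Pds5b, against 12.0% of all protein-coding genes. The nearer end of each gene lay a median of 8.26 kb from a peak, against 13.3 kb over all protein-coding genes. The nearer distances of Rad21, Stag1, Wapl, Nipbl and Mau2 ran from 12.7 to 50.7 kb, and those of the other 5 from 33 bp to 3.82 kb. Of the 20 gene sides, 7 had a peak before the nearest gene of any type (background 21.9%). Before the nearest protein-coding gene the count was 11 of 20 (background 33.4%). Both sides of Ctcf, Smc3 and Wapl had a peak before the protein-coding neighbour, and neither side of Stag1 or Pds5a did. These shares depend on how far away the neighbour is, which ran from 34 bp to 168.8 kb.

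The peaks themselves were somewhat wider than the whole list by median and quartiles, and the difference was not tested. The 46 had a median of 283 bp (quartiles 236 and 327, extremes 179 and 624 bp), and all peaks a median of 262 bp (quartiles 217 and 317). The width of 29 of the 46 reached the median of the whole list. A gene end of any type lay within 1 kb of 16 of the 46 (34.8%), against 17.0% of the 21400 peaks in or within 100 kb of a protein-coding gene. Of these 16, 12 were at an end of a protein-coding gene, among them 2 of the machinery genes. The 46 peaks come from 10 windows that differ in how many genes they hold. No matching on gene density was done.

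Window counts at other genes of the same and related complexes ran from 0 to 16 peaks, against 1 to 11 at the 10 genes. Of all protein-coding genes, 29.5% had a peak in the body, 81.8% in the window and 12.0% within 1 kb of an end. Their median was 1.42 peaks per 100 kb. The lists below are short, so their counts turn on few genes. Of 15 further cohesin genes, 6 had a peak in the body, 14 in the window and 1 within 1 kb of an end, with a median of 1.64 peaks per 100 kb. Cdca5, which encodes the cohesin protector sororin, led with 13 peaks, followed by the separase gene Espl1 with 10, the kinase gene Plk1 with 8 and the securin gene Pttg1 with 7. The meiotic genes Rec8 and Smc1b also had 7 peaks each. The 3 members on chromosome X, where peaks averaged 0.110 per 100 kb, had 5 at the SMC3 deacetylase gene Hdac8, 1 at Smc1a and 0 at Stag2. Of 8 genes for CTCF partners, 6 had a body peak and 3 an end peak, with a median of 2.94 peaks per 100 kb. Yy1 had 15, of which 11 lay in its body, Adnp had 13, Maz 8 and Chd8 7. None of the 8 condensin genes had a body peak and 3 (Ncapg, Ncapg2 and Smc2) had an empty window, with a median of 0.623 peaks per 100 kb. Of these Ncapd2 and Ncaph2 had 8 peaks each, Ncaph 4 and Smc4 2. Of 9 SMC5/6 genes 3 had a body peak, with a median of 1.86 peaks per 100 kb. Slf2 had 16, Nsmce2 9, Nsmce1 5 and Eid3 4. The lists differ in gene length and chromosome, and no test of a difference between them was made.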

How the data were processed

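Per the labels' protocols, formaldehyde-fixed chromatin was sonicated and precipitated with a CTCF antibody, with Drosophila chromatin and an H2Av antibody added for normalization, and sequenced as paired-end reads. STAR, Picard and MACS2, and the builds mm10 and dm6, are named in the submitters' processing notes. Versions, roles, the peak threshold, the way of merging and the use of the spike-in are not stated there. The deposited file is 1 list with 3 columns (chromosome, start, end); these positions carry no score, and none of its columns belongs to a sample. Depth is unknown.

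Coordinates are on mm10, counted from 1. Genes came from RefSeq GRCm38.p6 (49997 entries). Left out were 340 genes below 3 Mb on chromosomes 1 to 19 and X, where no peak lies, and genes off the 21 chromosomes, which left 49603. The 1 mitochondrial peak was not used. A peak belonged to the window that held its midpoint. Starts and strand came from the RefSeq promoter table. Computations used Python 3.11.15 with numpy 2.4.6 and pandas 2.3.3, and the counting was tested on simulated data. No test was made, because the file gives positions alone and the genes were chosen with earlier results known. All 10 genes are named, with the nearest protein-coding gene on either side and protein-coding genes within 100 kb with a peak at an end. Of each other list, 4 genes with the most peaks in the window are named, not always with their ties. Some further cohesin and condensin genes are named too. The genes, lists and rules were chosen with earlier results of these data known. Alternatives changed the flank, the end distance, the midpoint rule, the peak width, the merging of close peaks and the kind of neighbour.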

Additional observations from a re-analysis of the deposited data

How the results depend on the processing

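No paired analysis was possible because the peak list is merged over conditions and replicates, so no value belongs to a library. With the narrower peaks, those under the median width of the list, left out, the peaks in the 10 bodies numbered 4 in place of 7, those in the 10 windows 29 in place of 46, and the median distance from a gene end to the nearest peak was 34.0 kb (33996.5 bp) in place of 17.6 kb. The window total follows the flank by construction and was 13 with 10 kb, 28 with 50 kb and 104 with 250 kb. Sides with a peak before the neighbour numbered 7 of 20 with genes of any type and 11 with protein-coding genes only. The genes above the median density, 4 as reported, numbered 3 with the median of the same chromosome, 6 with a flank of 10 kb, 3 with 50 kb and 5 with 250 kb. Genes marked by a peak near an end, 2 as reported for 1 kb, numbered 3 with ends within 2.5 kb and 3 with promoter-table starts counted too, an alternative chosen after seeing the data. Body and window totals kept within 1.5 times under overlap in place of midpoint and under merging of close peaks. Of 90 recomputed counts of single genes, 31 moved by over 1.5 times. Causes were not tested. A region without a listed peak may have lacked reads or mappable sequence, which positions alone cannot tell apart.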
